A study of Homo sapiens with 6 samples.

Results

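A group of 7 MHC class I and related genes, HLA-B, HLA-C, HLA-E, HLA-F, MR1, MICA and MICB, were followed in the RNA of human esophageal adenocarcinoma cells. They were chosen by symbol from the deposited count tables, and all were found once each among 37493 gene identifiers. Expression was measured by RNA sequencing in 4 libraries from 2 established cell lines: OE33 transfected with an siRNA against PPARG (OE33 siPPARG), OE33 with a non-silencing siRNA (OE33 control), Eso26 with the siRNA against PPARG (Eso26 siPPARG) and Eso26 with the non-silencing siRNA (Eso26 control). PPARG is a nuclear receptor that switches on lipid genes. Both lines received the siRNA by lipid transfection, OE33 was kept in DMEM and Eso26 in RPMI medium, so line and medium cannot be told apart, and each line is a single tumour-derived line. The design text speaks of triplicates, but each condition has 1 column of counts, so no value below has a replicate check. A response particular to this siRNA's sequence and a response to the loss of PPARG cannot be told apart in this design. In bulk RNA fewer expressing cells and less RNA per cell cannot be told apart.

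MHC class I molecules display peptides from inside the cell to CD8 T cells. HLA-B and HLA-C encode classical heavy chains, which pair with beta-2 microglobulin (B2M) and are highly variable between people. HLA-E and HLA-F encode non-classical heavy chains. HLA-E presents peptides cut from the leader sequences of other class I chains to the NKG2A receptor of natural killer cells, and HLA-F binds natural killer cell receptors. MR1 presents vitamin B metabolites from microbes to mucosal-associated invariant T cells. MICA and MICB are stress-induced ligands of the activating receptor NKG2D and do not bind B2M. Interferons raise the classical genes through STAT and IRF factors and through NLRC5, the class I transactivator.

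The promoter sequences of 5 genes are shown so that the elements for which class I and MIC promoters are known can be read beside the values below; they include HLA-F and HLA-C, the HLA genes with the highest and the lowest OE33 ratio. They come from RefSeq (GRCh38.p14, 250 bases before to 50 after each listed start), in which 6 of the 7 genes, all but HLA-E, were matched. Each is written 5′ to 3′ on the gene's strand. In the HLA lines the window runs from 180 to 51 bases upstream of the listed start, and the capitals mark, where present and in this order, a kappaB site (GGGANTCCC), an interferon-stimulated response element (GAAA NN GAAA without the spaces, or its shorter form GAANNGAAA, here read from the other strand), the X2 box core TGACGC and CCAAT, the Y box core, on either strand.
HLA-B, chr6:31357230-31357359, minus strand: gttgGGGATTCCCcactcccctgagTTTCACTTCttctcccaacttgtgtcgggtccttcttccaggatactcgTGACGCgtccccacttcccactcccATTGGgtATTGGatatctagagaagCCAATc
HLA-C, chr6:31272143-31272272, minus strand: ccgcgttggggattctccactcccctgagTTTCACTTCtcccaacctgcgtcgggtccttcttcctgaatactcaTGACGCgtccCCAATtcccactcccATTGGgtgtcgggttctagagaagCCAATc
HLA-F, chr6:29723254-29723383, plus strand: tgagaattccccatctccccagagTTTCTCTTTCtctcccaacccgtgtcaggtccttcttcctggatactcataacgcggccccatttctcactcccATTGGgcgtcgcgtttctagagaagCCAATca
In MICA and MICB the window runs from 150 to 86 bases upstream, and the capitals mark GAANNTTC, a paired unit of the heat shock element, and CCAAT on the other strand.
MICA, chr6:31403445-31403509, plus strand: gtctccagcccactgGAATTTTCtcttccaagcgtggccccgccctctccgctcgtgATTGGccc
MICB, chr6:31497995-31498059, plus strand: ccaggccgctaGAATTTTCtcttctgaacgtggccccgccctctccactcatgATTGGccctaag

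The HLA-F window alone among the 7 windows of these genes (MR1 has 2) held the 10-letter interferon element, 156 bases upstream; 3.57% of 35116 windows of this length held it on either strand. The shorter form stood 155 bases upstream in HLA-B, 151 in HLA-C, 131 in MICA and 135 in MICB, against 7.66% of all windows; in MICA and MICB it overlaps the last letters of the heat shock unit. The palindromic kappaB form was found in HLA-B only, 176 bases upstream, and in 0.877% of all windows. TGACGC was found in HLA-B and HLA-C (9.14% of all windows), CCAAT in 6 of the 7 windows (34.6%), and GAANNTTC in MICA, in MICB and in 1 MR1 window, there past the start (6.77%). The PPAR direct repeat (AGGTCA, any base, AGGTCA; both strands, as for every motif), found in 0.0228% of all windows, was in none of the 7. A match describes letters in the reference and is neither a bound site nor a cause, and a window without a match says nothing about a factor.

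The libraries hold 16866996 to 23019840 counts, and the 7 genes took 0.347% of them in OE33 siPPARG, 0.230% in the OE33 control, 0.0485% in Eso26 siPPARG and 0.0402% in the Eso26 control. Levels are given in CPM, counts per 1000000 of the TMM-scaled library total, with exact 95% intervals that cover counting error only. A comparison kept the genes that reached 5 CPM in 1 or both of its libraries. PPARG itself stood at 313 counts in OE33 siPPARG against 2156 in the OE33 control, 7.32-fold lower (interval 6.50 to 8.26). In Eso26 it stood at 201 counts in siPPARG and 259 in the control, a ratio of 0.843 whose interval of 0.698 to 1.02 includes no change, so Eso26 is named below as the library labelled siPPARG. All 7 epithelial markers exceeded 5 CPM in every library. Immune markers summed to 59.2 CPM in OE33 siPPARG, 44.1 in the OE33 control, 25.9 in Eso26 siPPARG and 25.8 in the Eso26 control. CD3E, MS4A1 and NKG7 had 0 counts throughout, but others on the list were detected. LYZ stood at 24.7 CPM in Eso26 siPPARG and 24.6 in the Eso26 control. In OE33 siPPARG and the OE33 control, CD74 had 804 and 524 counts, CD14 94 and 83, and CD79A 68 and 51. Mesenchymal markers summed to between 6.72 and 8.68 CPM.

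**Figure D1:**
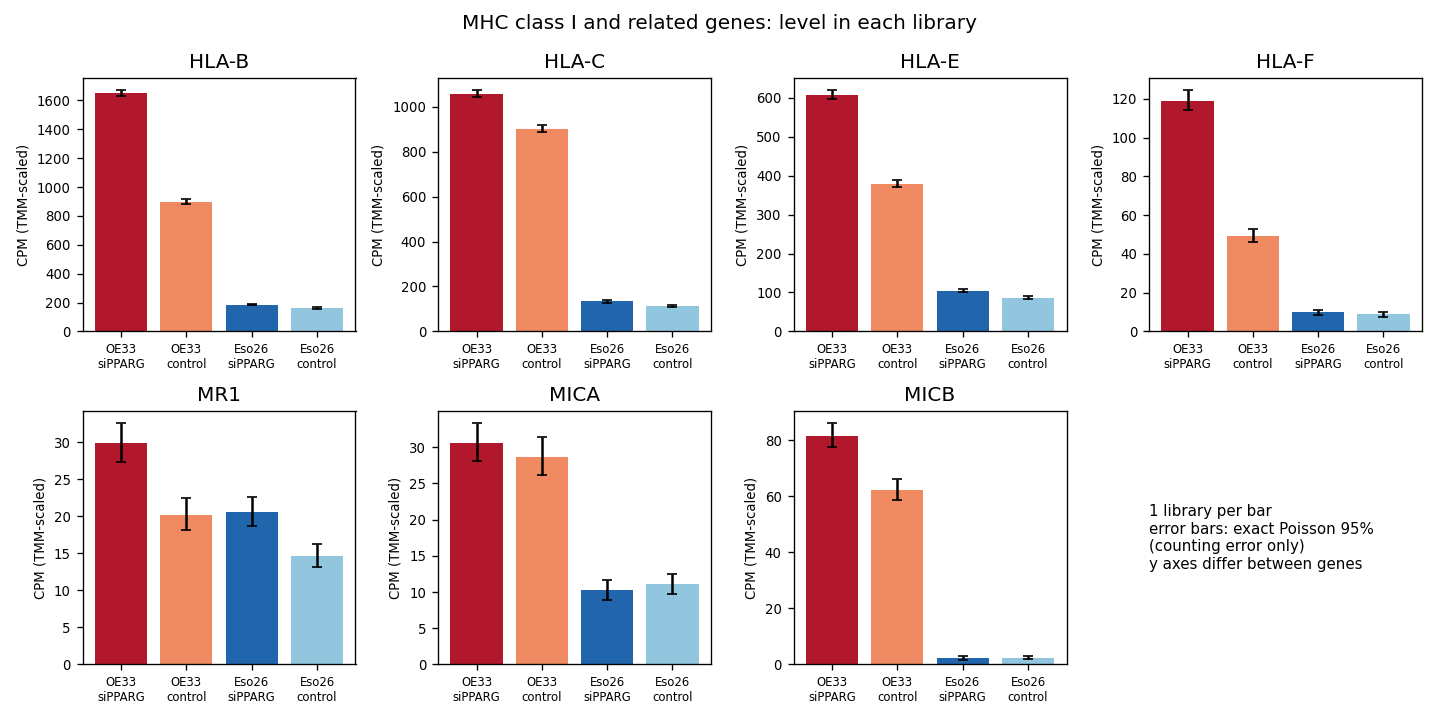
Level of each gene in CPM (linear axis from 0, different for each gene) in OE33 siPPARG, OE33 control, Eso26 siPPARG and Eso26 control; each bar is 1 library and the error bars are exact Poisson 95% intervals. Both OE33 bars stand above both Eso26 bars for every gene except MR1, where the OE33 control and Eso26 siPPARG are level at about 20.2 and 20.6 CPM.

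In OE33, siPPARG against control asks whether these genes differ when PPARG mRNA is low. All 7 genes had a positive log2 fold, with a median of 0.56, and the counting interval of the ratio lay above 1 for 6 of them, beside 26.0% of the 10550 genes kept above 1 and 24.5% below, so that such an interval alone does not set a gene apart at this depth. One gene, HLA-F, was past 2-fold, beside 1.08% of the 10550 genes kept that were higher and 0.417% that were lower by as much. Past 1.5-fold were 3 genes (HLA-F, HLA-B and HLA-E), all higher, beside 3.39% of kept genes higher and 2.32% lower. Across all kept genes the median log2 fold was 0.0024, and 50.4% were higher in siPPARG. No gene of the 7 was lower.

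HLA-F, the non-classical chain, stood farthest apart. It had 2098 counts (119 CPM, interval 114 to 124) in OE33 siPPARG and 819 counts (49.4 CPM, interval 46.1 to 52.9) in the OE33 control. The ratio was 2.41 (interval 2.22 to 2.62), rank 59 from the top of 10550 genes. HLA-F overlaps a pseudogene, RPL23AP1, and an antisense gene, HLA-F-AS1, in RefSeq. Whether counting used strand, and how reads shared with these genes were counted, is not known. The HLA-F-AS1 row held 90 counts in OE33 siPPARG and 74 in the OE33 control.

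The classical chains parted from each other. HLA-B had 29073 counts (1650.1 CPM, interval 1631 to 1669) in OE33 siPPARG and 14918 counts (899 CPM, interval 885 to 914) in the OE33 control, a ratio of 1.83 (interval 1.80 to 1.87) and rank 144. HLA-C had 18621 counts (1057 CPM, interval 1042 to 1072) in OE33 siPPARG and 14959 counts (902 CPM, interval 888 to 916) in the OE33 control, a ratio of 1.17 (interval 1.15 to 1.20) and rank 1868. The intervals do not touch. In the OE33 control the HLA-B and HLA-C rows held nearly the same number of counts, and in OE33 siPPARG they did not. HLA-E, the ligand of NKG2A, had 10695 counts (607 CPM, interval 596 to 619) in OE33 siPPARG and 6297 counts (379.7 CPM, interval 370.3 to 389.2) in the OE33 control, a ratio of 1.60 (interval 1.55 to 1.65) and rank 261. These are close paralogs that vary between people, and how reads shared between them, or reads from alleles unlike the reference, were counted is not known.

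MR1 and MICB were higher by less, and MICA was not distinguishable from its control at this depth. MR1 had 526 counts (29.9 CPM, interval 27.4 to 32.5) in OE33 siPPARG and 335 counts (20.2 CPM, interval 18.1 to 22.5) in the OE33 control, a ratio of 1.48 (interval 1.29 to 1.70). MICB had 1438 counts (81.6 CPM, interval 77.5 to 85.9) in OE33 siPPARG and 1032 counts (62.2 CPM, interval 58.5 to 66.1) in the OE33 control, a ratio of 1.31 (interval 1.21 to 1.42). MICA, the other NKG2D ligand, had 539 counts (30.6 CPM) in OE33 siPPARG and 476 counts (28.7 CPM) in the OE33 control. Its ratio of 1.07 (interval 0.941 to 1.21) includes no change.

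**Figure D2:**
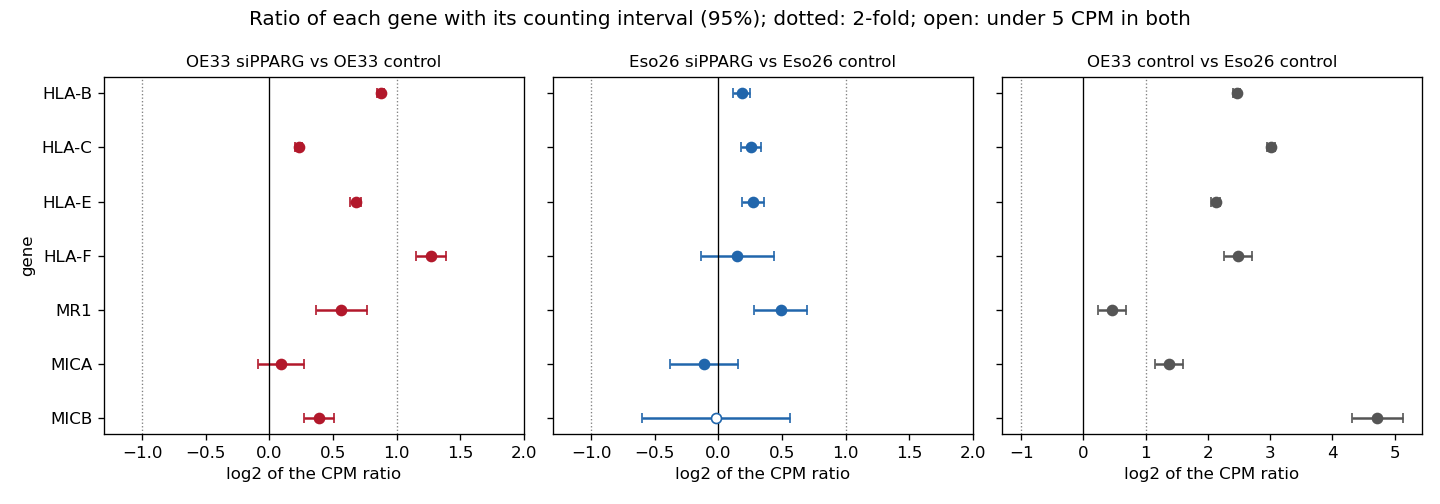
Log2 of the CPM ratio (no prior count) of each gene in the 3 comparisons, with exact 95% counting intervals; dotted lines mark 2-fold and the open point is a gene under 5 CPM in both libraries. In OE33 siPPARG, HLA-F at 2.41-fold is beyond the dotted line and the other genes are inside it; in the Eso26 pair all points are inside it; between the controls, all but MR1 are beyond it.

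In Eso26, where PPARG mRNA was not detectably lower, HLA-B, HLA-C, HLA-E and MR1 were higher in the library labelled siPPARG by small amounts, and the intervals of HLA-F, MICA and MICB included no change. An interval above 1 was had by 23.6% of the 10421 genes kept, and one below by 29.6%. Of the 7 genes, 6 were kept, 5 with a positive log2 fold and 1 with a negative one, and their median log2 fold was 0.22 against -0.0073 over all kept genes, of which 48.6% were higher. None was past 2-fold in either direction, beside 0.0576% of all kept genes higher and 0.144% lower, and none was past 1.5-fold, beside 1.25% higher and 1.14% lower.

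MR1 had the highest ratio of the members here. It had 439 counts (20.6 CPM, interval 18.7 to 22.6) in Eso26 siPPARG and 340 counts (14.7 CPM, interval 13.1 to 16.3) in the Eso26 control, a ratio of 1.40 (interval 1.22 to 1.62) and rank 254 of 10421. Its ratio was thus of similar size in both lines, 1.48 in OE33 and 1.40 in Eso26. HLA-C was alike in both as well, with 2850 counts (133 CPM, interval 129 to 138) in Eso26 siPPARG and 2596 counts (112 CPM, interval 108 to 116) in the Eso26 control, a ratio of 1.19 (interval 1.13 to 1.26).

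HLA-E and HLA-B, which were past 1.5-fold in OE33, were not so in Eso26. HLA-E had 2240 counts (105 CPM, interval 101 to 109) in Eso26 siPPARG and 2017 counts (86.9 CPM, interval 83.2 to 90.8) in the Eso26 control, a ratio of 1.21 (interval 1.14 to 1.28). HLA-B had 3957 counts (185 CPM, interval 179.6 to 191.2) in Eso26 siPPARG and 3792 counts (163 CPM, interval 158 to 169) in the Eso26 control, a ratio of 1.13 (interval 1.08 to 1.19). HLA-F had 209 counts (9.79 CPM) in Eso26 siPPARG and 205 (8.83 CPM) in the Eso26 control, and its ratio of 1.11 (interval 0.910 to 1.35) includes no change. For HLA-B, HLA-E and HLA-F the Eso26 interval lies wholly below the OE33 interval, whereas for HLA-C, MR1, MICA and MICB the intervals of the 2 lines overlap. With 1 library per condition, no test of such a difference can be made.

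MICA and MICB showed no detectable difference in Eso26. MICA had 219 counts (10.3 CPM) in Eso26 siPPARG and 257 counts (11.1 CPM) in the Eso26 control, a ratio of 0.926 (interval 0.770 to 1.11). MICB was under the expression filter, with 50 counts (2.34 CPM) in Eso26 siPPARG and 55 counts (2.37 CPM) in the Eso26 control, a ratio of 0.988 (interval 0.660 to 1.48); the sign of its log2 fold turned when library totals alone were used for scaling.

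**Figure D3:**
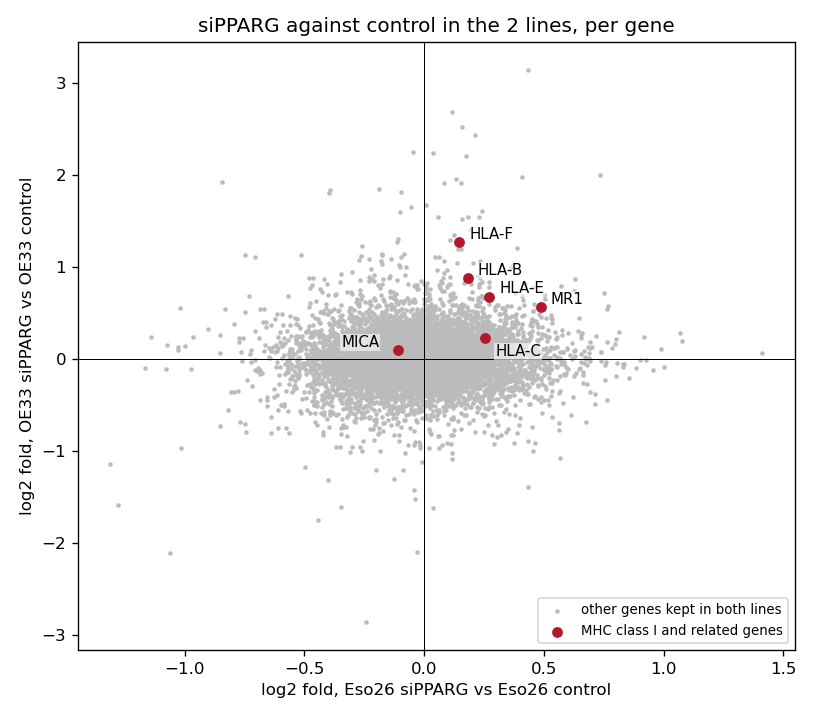
Log2 fold of siPPARG against control in OE33 (vertical axis) and in Eso26 (horizontal axis) for every gene kept in both lines (grey) and the 6 MHC class I and related genes among them (red; MICB was not kept in Eso26). HLA-F, at 1.27 in OE33 and 0.15 in Eso26, and HLA-B, at 0.88 in OE33 and 0.18 in Eso26, lie high on the vertical axis, while MR1, at 0.56 in OE33 and 0.49 in Eso26, lies to the right of the others.

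The 4 libraries together allow a test of a difference common to both lines, in a model with line and treatment and 1 residual degree of freedom. By edgeR's quasi-likelihood test with Benjamini-Hochberg adjustment, 0 of 11382 genes were called, which is 0% in either direction, and so 0 of the 7 members. The smallest adjusted p of a member was 0.942 by edgeR. Unadjusted p-values were under 0.05 for 4 of the 7 (HLA-B, HLA-E, HLA-F and MR1) and for 523 of all genes. DESeq2 called 13 genes and limma-voom 0, none of them a member. The largest common log2 fold was that of HLA-F at 0.78, and the smallest unadjusted edgeR p among the members was 0.0113, for MR1, whose common log2 fold was 0.53 and which was higher in 2 of 2 lines. A gene that differs in OE33 and not in Eso26 adds to the residual spread of this model.

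Ratios of counts within a library do not depend on scaling, and gene length cancels when the same ratio is compared between libraries. HLA-B to HLA-C stood at 1.56 (interval 1.53 to 1.59) in OE33 siPPARG and 0.997 (interval 0.975 to 1.02) in the OE33 control. In Eso26 the ratio was 1.39 (interval 1.32 to 1.46) in siPPARG and 1.46 (interval 1.39 to 1.54) in the control, so the OE33 control was the library that stood low. HLA-F to HLA-C was 0.113 (interval 0.108 to 0.118) in OE33 siPPARG and 0.0547 (interval 0.0510 to 0.0587) in the OE33 control, with 0.0733 in Eso26 siPPARG and 0.0790 in the Eso26 control, whose intervals overlap. HLA-E to HLA-C was 0.574 (interval 0.561 to 0.588) in OE33 siPPARG and 0.421 (interval 0.409 to 0.434) in the OE33 control, below the 0.786 of Eso26 siPPARG and the 0.777 of the Eso26 control. Of the counts of the 4 HLA genes together, HLA-C held 30.8% in OE33 siPPARG, 40.4% in the OE33 control, 30.8% in Eso26 siPPARG and 30.2% in the Eso26 control.

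**Figure D4:**
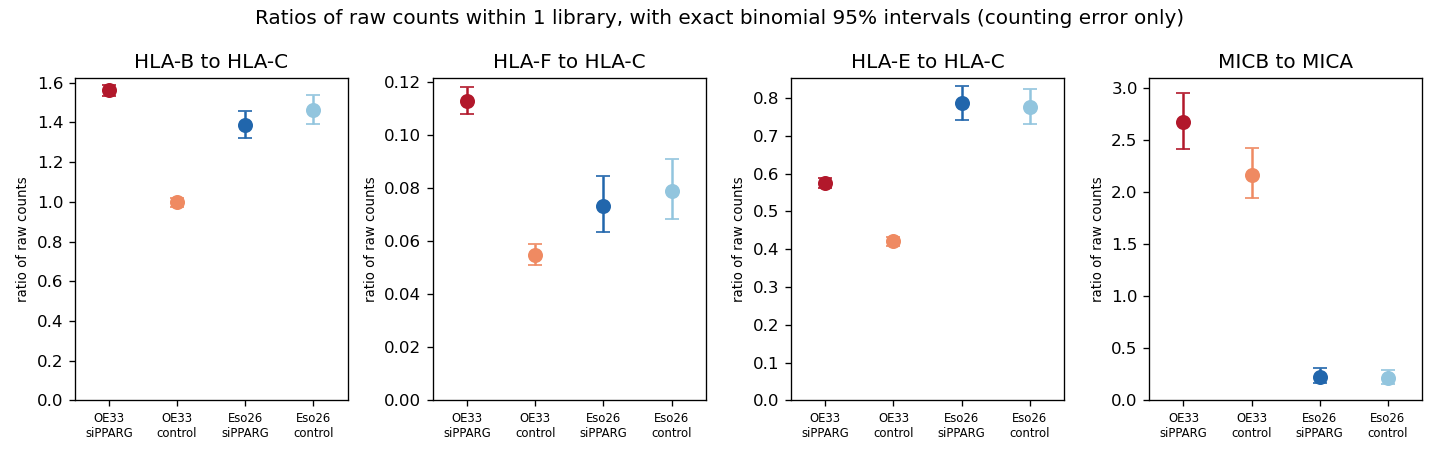
Ratio of raw counts of 2 genes within each library (linear axis from 0), with exact binomial 95% intervals. HLA-B to HLA-C is 0.997 in the OE33 control and between 1.39 and 1.56 in the other libraries, and MICB to MICA is 2.17 or more in the OE33 libraries and 0.228 or less in the Eso26 libraries.

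Between the controls, OE33 against Eso26 shows how the lines differ without the PPARG siRNA. All 7 genes were higher in the OE33 control, with intervals above 1, beside 45.7% of the 11211 genes kept above 1 and 43.7% below. Of the 7, 6 were past 2-fold, beside 21.5% of kept genes higher and 16.3% lower; the same 6 were those past 1.5-fold, beside 31.8% higher and 27.5% lower. The median log2 fold of the 7 was 2.46 against 0.029 over all kept genes. The OE33 control also serves the OE33 comparison above, so the 2 sets of values are not independent.

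MICB stood farthest apart, with 1032 counts (62.2 CPM) in the OE33 control and 55 (2.37 CPM) in the Eso26 control, a ratio of 26.3 (interval 20.0 to 35.1). MICA differed far less, with 476 counts in the OE33 control and 257 in the Eso26 control, a ratio of 2.59 (interval 2.22 to 3.03). The count ratio of MICB to MICA was 2.67 (interval 2.41 to 2.95) in OE33 siPPARG and 2.17 (interval 1.94 to 2.42) in the OE33 control, against 0.228 (interval 0.164 to 0.312) in Eso26 siPPARG and 0.214 (interval 0.157 to 0.287) in the Eso26 control. The NKG2D ligand rows thus had opposite orders of counts in the 2 lines.

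HLA-C was 8.06-fold higher in the OE33 control than in the Eso26 control (interval 7.73 to 8.41), HLA-F 5.59-fold (interval 4.79 to 6.55), HLA-B 5.50-fold (interval 5.31 to 5.71) and HLA-E 4.37-fold (interval 4.15 to 4.60). MR1, with 335 counts in the OE33 control and 340 in the Eso26 control, was the closest at 1.38-fold (interval 1.18 to 1.61). HLA-C, the classical gene least apart between the OE33 libraries, was thus the HLA gene most apart between the controls. In the test over the 4 libraries, edgeR called 37.2% of 11382 genes higher and 34.1% lower in OE33, and all 7 members were among those higher, with adjusted p between 2.18e-05 (MICB) and 0.0218 (MR1) and each higher in both OE33 libraries than in the Eso26 library of the same treatment. DESeq2 called 6 of the 7, with MR1 at an adjusted p of 0.0753. Alleles of the HLA and MIC genes differ between lines and can map differently to the reference; their part in these differences was not tested.

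Across the 4 libraries the order of levels was the same for HLA-B, HLA-C, HLA-E and HLA-F: OE33 siPPARG, OE33 control, Eso26 siPPARG, Eso26 control. All neighbours were separate by counting intervals, except the Eso26 pair for HLA-F. For MR1 the OE33 control and Eso26 siPPARG overlapped, and for MICA and MICB the Eso26 pair overlapped; the OE33 pair also overlapped for MICA.

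Genes of the same pathway were read from lists chosen by function, with earlier results of these data known. All 15 genes of peptide processing and loading were kept and had a positive log2 fold in OE33 siPPARG, each with an interval above 1; 6 were past 1.5-fold and 1 past 2-fold, and the median log2 fold was 0.52. Over all genes kept, 26.0% had an interval above 1, 3.39% were higher past 1.5-fold and 1.08% past 2-fold. TAPBPL, a tapasin-related peptide editor, had 227 counts in OE33 siPPARG and 103 in the OE33 control, a ratio of 2.07 (interval 1.64 to 2.64). PSMB9, a subunit of the immunoproteasome, had 1456 counts in OE33 siPPARG and 751 in the OE33 control, a ratio of 1.83, and TAP1 and TAP2, which pump peptides into the endoplasmic reticulum, stood at 1.80 (interval 1.72 to 1.88) and 1.67 (interval 1.57 to 1.78). B2M, the partner chain, stood at 1.54 (interval 1.52 to 1.57). In Eso26 the same list had 10 genes higher and 5 lower in siPPARG, with a median log2 fold of 0.071. There PSMB9 stood at a ratio of 1.55 (interval 1.29 to 1.87) and B2M at 0.925 (interval 0.903 to 0.947).

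Of 12 transcription factors of class I genes, NLRC5 alone was past 1.5-fold in OE33 siPPARG. NLRC5 had 2290 counts (130 CPM) in OE33 siPPARG and 1034 counts (62.3 CPM) in the OE33 control, a ratio of 2.08 (interval 1.94 to 2.25). IRF1 stood at 1.15 (interval 1.07 to 1.24), IRF2 at 1.11 (interval 0.979 to 1.25) and NFYA, a CCAAT-binding subunit, at 0.822 (interval 0.741 to 0.912); the list median was 0.032. In Eso26 NLRC5 had 128 counts in siPPARG and 118 in the control, a ratio of 1.18 (interval 0.911 to 1.53). Between the controls NLRC5 was 12.3-fold higher in OE33, with 1034 counts in the OE33 control and 118 in the Eso26 control (interval 10.1 to 15.0), the largest difference of that list there, followed by IRF1 at 2.40-fold (interval 2.19 to 2.63) and the NF-kB subunit gene RELA at 2.07-fold (interval 1.95 to 2.19).

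Among 9 kept interferon receptor and signalling genes, 7 were higher and 2 lower in OE33 siPPARG, with a median log2 fold of 0.16. STAT2, a signal transducer of type I interferon, stood at 2.16 (interval 1.99 to 2.34), while the receptor genes IFNGR1 and IFNGR2 stood at 1.24 (interval 1.20 to 1.28) and 0.704 (interval 0.656 to 0.754). In Eso26 the median log2 fold of the list was -0.056. Between the controls all 9 were higher in OE33, beside 50.9% of all kept genes, with a median log2 fold of 1.12. IFNGR1 stood at 3.70-fold (interval 3.54 to 3.88), JAK2 at 2.92-fold (interval 2.40 to 3.55) and TYK2 at 2.38-fold (interval 2.15 to 2.63). The part of these factors in the levels of the class I genes was not tested.

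**Figure D5:**
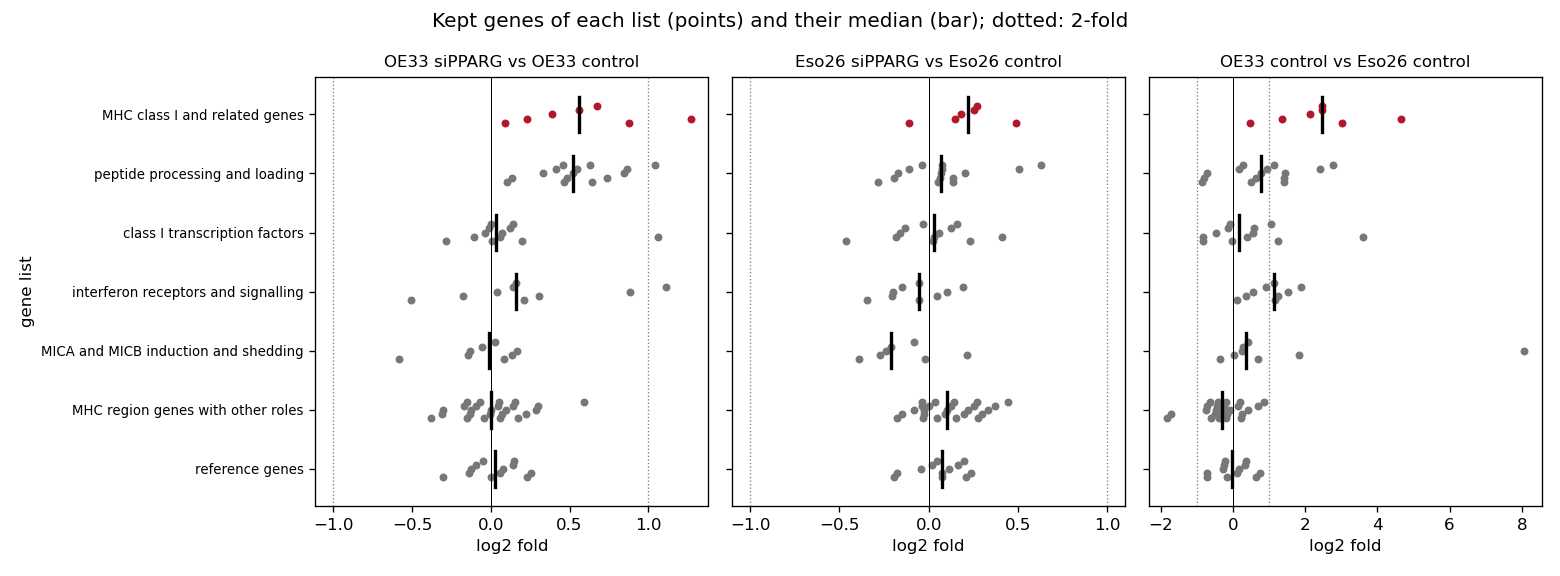
Log2 fold of each kept gene (points) and the list median (black bar) in the 3 comparisons, with the MHC class I and related genes in red; dotted lines mark 2-fold. In OE33 siPPARG against control the medians are 0.56 for the red list and 0.52 for peptide processing and loading, against 0.029 for reference genes. In Eso26 siPPARG against control they are 0.22 for the red list and 0.074 for reference genes. Between the controls the red list has a median of 2.46 and the other genes of the MHC region -0.30.

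Genes of the MHC region with other roles were split between higher and lower in OE33. Of 25 kept, 13 were higher and 12 lower in OE33 siPPARG, with a median log2 fold of 6.30e-05 and 1 gene, the sialidase gene NEU1, past 1.5-fold at 1.51 (interval 1.40 to 1.62). MRPS18B, a mitochondrial ribosomal protein gene, stood at 0.769 (interval 0.710 to 0.832), and VARS and MDC1 at 0.807 and 0.810. In Eso26 siPPARG 17 of the 25 were higher and 8 lower, with a median log2 fold of 0.10, beside 48.6% of all kept genes higher. Intervals lay above 1 for 12 and below 1 for 4, beside 23.6% and 29.6% of all kept genes. Of the 12 reference genes, 9 were higher and 3 lower in Eso26 siPPARG, with intervals above 1 for 7 and below 1 for 3. Standing higher more often than lower was thus not particular to the neighbours of the class I genes in this line. Between the controls 7 were higher and 18 lower in OE33, with a median log2 fold of -0.30, beside 50.9% of all kept genes higher. DDX39B, an RNA helicase gene, stood at a ratio of 0.280 (interval 0.250 to 0.313). ATAT1, a tubulin acetyltransferase gene, stood at 0.301 (interval 0.246 to 0.365). A difference in the dosage of the whole region was not measured.

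Other NKG2D ligands and class I-like genes were mostly low: 3 of 15 were kept in OE33 siPPARG against control. ULBP2, an NKG2D ligand, had 349 counts in OE33 siPPARG and 296 in the OE33 control, a ratio of 1.11 (interval 0.948 to 1.30). HFE, a class I-like regulator of iron, stood at 0.801 (interval 0.712 to 0.900) and PROCR at 1.01 (interval 0.957 to 1.07). Between the controls ULBP2 was 13.8-fold higher in OE33 (296 against 30 counts, interval 9.47 to 20.8), on the same side as MICB, and PROCR 34.1-fold (interval 27.7 to 42.3). FCGRT, the heavy chain of the neonatal Fc receptor, went the other way, with 27 counts in the OE33 control and 1260 in the Eso26 control, a ratio of 0.0300 (interval 0.0197 to 0.0438).

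Of 8 genes tied to the induction or shedding of MICA and MICB, 4 were higher and 4 lower in OE33 siPPARG. None was past 1.5-fold higher or lower, and the median log2 fold was -0.013. The protease gene ADAM9 stood at 0.667 (interval 0.650 to 0.684), the heat shock factor gene HSF1 at 1.12 (interval 1.06 to 1.18), ADAM17 at 1.10 (interval 1.03 to 1.17) and the DNA damage kinase gene ATM at 0.904 (interval 0.833 to 0.981). Between the controls 7 were higher in OE33, beside 50.9% of all kept genes. Among the 7 were ADAM9 at 3.57-fold (interval 3.46 to 3.68) and HSF1 at 1.62-fold (interval 1.53 to 1.72). MMP14, a membrane protease gene, was also among them, with 1024 counts in the OE33 control and 3 in the Eso26 control, a ratio of 478 (interval 163 to 2320).

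Most MHC class II genes were under the expression filter. Of 12, CD74, the invariant chain, was the only one kept in OE33, with 804 counts in siPPARG and 524 in the control, a ratio of 1.44 (interval 1.29 to 1.62). In the Eso26 control CD74 had 2 counts, so that the ratio of the OE33 control to the Eso26 control was 367 (interval 101 to 3035), while HLA-DQB1, a class II beta chain, had 4 counts in the OE33 control and 528 in the Eso26 control. In Eso26 siPPARG against control 2 class II genes were kept, HLA-DRB1 and HLA-DQB1. HLA-DRB1 had 118 counts (5.53 CPM) in Eso26 siPPARG and 72 (3.10 CPM) in the Eso26 control. Its ratio was 1.78 (interval 1.32 to 2.42), and 1.25% of all kept genes were higher past 1.5-fold. It reached 5 CPM only in the siPPARG library, so the filter itself favoured a higher value there. HLA-DQB1 had 625 counts (29.3 CPM) in Eso26 siPPARG and 528 (22.8 CPM) in the Eso26 control, a ratio of 1.29 (interval 1.14 to 1.45). CD74 is also on the immune marker list, of which it made up most of the OE33 sum.

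For each member the 3 genes closest in pattern were found by the Euclidean distance of log2 CPM over the 4 libraries, each gene centred on its own mean, among 11381 other genes. Nearest to HLA-B were HELZ2 (distance 0.119), SECTM1 (0.184) and DDX58 (0.196), and nearest to HLA-F were ADM (0.174), ISG15 (0.259) and APOL2 (0.334). HLA-C had PWWP2B (0.0475), GRAMD1A (0.0666) and VWDE (0.0866), and HLA-E had ABCA3 (0.160), GRAMD2B (0.188) and SLC44A2 (0.195). MR1 was closest to TP53INP2 (0.0375), NOD1 (0.126) and ZNF688 (0.129), MICA to HACE1 (0.0556), C17orf51 (0.0593) and NFKBIE (0.0615), and those of MICB that are reported here were UNC13D (0.161) and PCDH7 (0.163). The median distance to all genes was between 1.08 for MR1 and 4.85 for MICB. Within the 7, the closest pair was HLA-B and HLA-F (0.357) and the farthest MR1 and MICB (4.38). With 4 points, of which the line difference takes most of the spread, such distances are a description.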

How the data were processed

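RNA was sequenced in 4 libraries, and the authors deposited raw counts per gene for each, without normalisation. Per the submitters' processing notes, the build is hg19 and the tools, with no roles stated, are MACS2, Picard, Bowtie, STAR and Trim Galore. Not given in the sources used here are the counting program, its annotation, whether it used strand and how it handled reads that map to several genes. The PPARG peak lists are on hg19, whose gene positions were not used here, and the peaks were not analysed.

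Of 37533 rows per table, 40 repeat an identifier and were summed. Counts were scaled with TMM factors over the 4 libraries (edgeR 4.0.16, R 4.3.3), and log2 folds are differences of log2 CPM with a prior count of 2. Ratios have exact conditional binomial and levels exact Poisson 95% intervals, for counting error only. With 1 library per condition, a comparison of 2 libraries has no test. The fit of the 4 libraries used edgeR's quasi-likelihood test, which was tested on simulated data, with DESeq2 1.42.0 and limma 3.58.1 as alternatives. CPM values are not divided by length, so counts of different genes in the same library do not rank their levels. Count ratios and shares of genes within a library are given to be compared between libraries.

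Named genes are the 7 members, PPARG, per list up to 4 genes ranked by absolute log2 fold in OE33 and up to 3 so ranked between the controls, and the 3 nearest in pattern; B2M and repeats of named genes in Eso26 were added after their values were seen. The members and lists were chosen with earlier results of these data known. Some named genes are not reported here.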

Additional observations from a re-analysis of the deposited data

Results flagged for a closer look

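MICA and MICB had log2 folds of opposite sign in the 2 lines: MICA stood at 0.092 in OE33 siPPARG against its control and at -0.11 in Eso26, and MICB at 0.39 in OE33 and -0.017 in Eso26. The difference between the lines was not tested, and the intervals of MICA in both lines and of MICB in Eso26 include no change.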

How the results depend on the processing

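The choices tried were DESeq2 size factors, library totals alone, scaling on reference genes, prior counts of 0.5 and 5, the first row of a repeated identifier, other expression filters, a 1.5-fold threshold and other tools; scaling within the pair of libraries was added after seeing the data. Past 1.5-fold, 3 members were counted in OE33 instead of 1. Scaled on the reference genes, the median log2 fold of the members in Eso26 was 0.14 instead of 0.22, and with library totals alone it was 0.26. In the 4-library fit of a common effect, 0 genes were called by edgeR, 13 by DESeq2 and 64 by edgeR without a filter; none was a member, and the lowest adjusted p of a member without a filter was 0.0928 by edgeR. The other settings gave 1 member past 2-fold in OE33, 0 in Eso26 and 6 between the controls, and medians of 0.53 to 0.56 in OE33 and 2.42 to 2.49 between the controls. Scaled on the reference genes, HLA-B had a log2 fold of 0.85 in OE33 and 0.11 in Eso26. Over all genes of the Eso26 pair, 6 were higher and 15 lower past 2-fold, against 418 and 329 with no filter, 61 and 35 when kept at 1 CPM, 1 and 8 at 10 CPM, and 8 and 10 with library totals alone. In OE33, 114 were higher and 44 lower, against 218 and 84 at 1 CPM and 868 and 590 with no filter. The 4-library fit has line as a term and so sets siPPARG against control within each line; beyond that, no paired analysis was possible because each condition has 1 library and the labels number no replicates; leaving a library out leaves no residual degrees of freedom. A count of 0 allows up to 3 counts, or 0.129 to 0.181 CPM here.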

Other observations

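Of 5 rows for class I pseudogenes, chosen after their values were seen, 3 were kept in OE33. Each of the 3 was higher in OE33 siPPARG with an interval above 1, beside 26.0% of all kept genes. HLA-H and HLA-L were under the filter, and their ratios of 1.49 (interval 0.965 to 2.33) and 1.27 (interval 0.741 to 2.19) include no change. HLA-J had 168 counts in OE33 siPPARG and 73 in the OE33 control, a ratio of 2.17 (interval 1.64 to 2.89), HLA-V had 376 counts in OE33 siPPARG and 236 in the OE33 control, a log2 fold of 0.58, and HLA-K had 292 in OE33 siPPARG and 212 in the OE33 control, a ratio of 1.30 (interval 1.08 to 1.55). In Eso26 none of these rows was kept. HLA-J had 24 counts in Eso26 siPPARG and 10 in the Eso26 control, a ratio of 2.61 (interval 1.20 to 6.11), and the intervals of the others included no change. HLA-V had 236 counts in the OE33 control and 0 in the Eso26 control, while HLA-H had 36 counts in the OE33 control and 102 in the Eso26 control, against the direction of the class I genes. Whether these counts are reads of the pseudogenes or reads shared with the coding genes was not tested.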
